A study of Mus musculus with 6 samples.

Results

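The G2 and mitosis genes described here are 32 genes that drive cells from the end of DNA replication through chromosome segregation and cytokinesis. They were taken from the deposited table by their symbols and make up 32 of its 24041 genes. The rule used no measured value, but the list was chosen with earlier results of these data known. All 32 passed the filter on low counts. The libraries hold messenger RNA of cells from the mouse cerebral cortex, sorted for green fluorescent protein (GFP) after plasmid DNA had been brought in by electroporation. In 3 libraries GFP was combined with wild-type PRPF6, in the other 3 with mutant PRPF6, a component of the spliceosome that belongs to its tri-snRNP. Every library thus carried GFP and a PRPF6 plasmid, so a higher level with mutant PRPF6 cannot be told apart from a lower level with wild-type PRPF6. The labels name neither the mutation, the promoter of the plasmid nor the age or strain of the mice. They also leave unsaid whether each library is a different animal, and a p-value therefore measures only how these libraries spread, and that spread may be technical.

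Libraries held 45115114 to 60600621 counts, and between 14651 and 16373 genes had at least 1 count. Levels are given in CPM, counts scaled to the depth and composition of each library. Values for a gene are listed for replicates 1, 2 and 3 of a group, in that order. The counts of mouse Prpf6 were 166, 124 and 131 CPM under wild-type and 131, 145 and 125 CPM under mutant PRPF6, which does not check the labels because both groups received PRPF6. Cortical markers were present in all libraries: 19 radial glia markers summed to 2807 to 6267 CPM and 18 newborn neuron markers to 5054 to 11753 CPM. Markers of cells that could enter the sort varied more. Red blood cell markers summed to 171 to 15572 CPM and meningeal fibroblast markers to 70.1 to 2019 CPM, both highest in wild-type replicate 3. Endothelial and mural markers summed to 13.1 to 270 CPM, and microglia markers to 49.6 to 1048 CPM, highest in mutant replicate 2. Interneuron markers summed to 240 to 1105 CPM, highest in mutant replicate 1.

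The genes of G2 and mitosis are transcribed in a wave late in the cell cycle. In resting and early cycling cells the DREAM complex, built on the MuvB core, holds their promoters silent, and later the same core works with B-MYB and FOXM1 to activate them. MuvB binds a short element called the cell cycle genes homology region (CHR), typically TTTGAA, and the activator NF-Y binds CCAAT boxes (Y boxes) nearby. In the developing cortex the dividing cells are mainly radial glia, which divide at the ventricular surface, and intermediate progenitors, while neurons have left the cycle, so these messages are known as markers of dividing progenitors.

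Promoter stretches are shown to describe the members. Whether they bear on the members' shared pattern across the libraries, described further on, was not tested. Sequences are those of RefSeq on GRCm38.p6, from a window of 250 bases before to 50 bases after each gene's start, written 5′ to 3′ on the gene's strand, and 28 of the 32 members were matched by symbol. Ccna2, Tpx2, Aurkb and Smc4 were not analysed here for sequence. Capitals mark TTTGAA and CCAAT or their reverse complements, TTCAAA and ATTGG. The first 6 stretches lie before the start. They come from Cdk1 (chr10:69352913-69353022, minus strand), Ccnb1 (chr13:100786487-100786596, minus strand), Cdc20 (chr4:118437344-118437453, minus strand), Ube2c (chr2:164769819-164769928, plus strand), Top2a (chr11:99024190-99024389, minus strand) and Mki67 (chr7:135716460-135716579, minus strand). The first 4 of these stretches are the last 110 bases before the start, that of Top2a the last 200 bases, and that of Mki67 runs from 200 to 81 bases before it.
Cdk1: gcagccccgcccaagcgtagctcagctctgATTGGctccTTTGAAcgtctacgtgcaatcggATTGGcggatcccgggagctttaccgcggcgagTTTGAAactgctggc
Ccnb1: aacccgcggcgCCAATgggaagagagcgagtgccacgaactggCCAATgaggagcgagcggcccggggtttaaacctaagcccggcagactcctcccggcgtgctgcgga
Cdc20: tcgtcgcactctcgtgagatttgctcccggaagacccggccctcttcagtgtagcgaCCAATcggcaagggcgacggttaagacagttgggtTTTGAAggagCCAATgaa
Ube2c: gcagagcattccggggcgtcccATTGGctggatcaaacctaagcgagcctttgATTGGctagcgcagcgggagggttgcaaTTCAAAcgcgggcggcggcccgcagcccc
Top2a: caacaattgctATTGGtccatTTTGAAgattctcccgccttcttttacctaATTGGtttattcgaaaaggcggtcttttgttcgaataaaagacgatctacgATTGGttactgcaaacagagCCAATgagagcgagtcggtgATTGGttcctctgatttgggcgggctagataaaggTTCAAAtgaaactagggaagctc
Mki67: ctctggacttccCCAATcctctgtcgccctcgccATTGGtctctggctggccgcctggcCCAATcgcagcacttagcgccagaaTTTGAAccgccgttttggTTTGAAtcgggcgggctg

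In Cdk1, TTTGAA began 71 and 15 bases before the start, and in Cdc20 it began 18 bases before it, between a pair of CCAAT boxes. Ube2c and Top2a held it on the opposite strand, 29 and 23 bases before the start, and Top2a held a second match 179 bases before it. Mki67 held its matches farther out, at 116 and 98 bases. Ccnb1 held CCAAT boxes 99 and 67 bases before the start and no TTTGAA in its window. In other members the element lay just after the start, and 24 bases around it are shown for Plk1 (chr7:122159456-122159479, plus strand), Aurka (chr2:172370524-172370547, minus strand), Ccnb2 (chr9:70421536-70421559, minus strand) and Cenpf (chr1:189688070-189688093, minus strand).
Plk1: agcgccgcgTTTGAAttcggggag
Aurka: aggagaaccTTTGAAttgtaacgg
Ccnb2: ggcgcggtaTTTGAAtcgcggacc
Cenpf: ggcgggcagTTTGAAtcgctcgtg

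The motifs searched were TTTGAA and CCAAT on both strands. Other forms of the CHR were not searched, so a member without TTTGAA may still hold one. TTTGAA was in the window of 20 of the 28 matched members (71.4%). It was in 13.9% of the 10755 tested genes with a window and in 20.2% of all 27025 genes with a RefSeq window. In 19 members (67.9%) it began within 50 bases of the start, against 3.66% of the tested genes. CCAAT was in 21 members (75.0%), against 43.1% of the tested genes, and at least 2 copies were in 16 (57.1%), against 16.4%. Both motifs were in 17 members (60.7%), against 5.75%. They overlapped in 1 member. A list of 64 other G2 and mitosis genes, of which 51 had a window, gave 64.7% for TTTGAA and 72.5% for CCAAT. S phase genes gave 12.9% for TTTGAA and 58.1% for CCAAT, and core subunits of the anaphase-promoting complex (APC/C), the ubiquitin ligase of mitotic exit, 13.3% and 33.3%. A match describes the letters in the window and not a bound site.

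**Figure D1:**
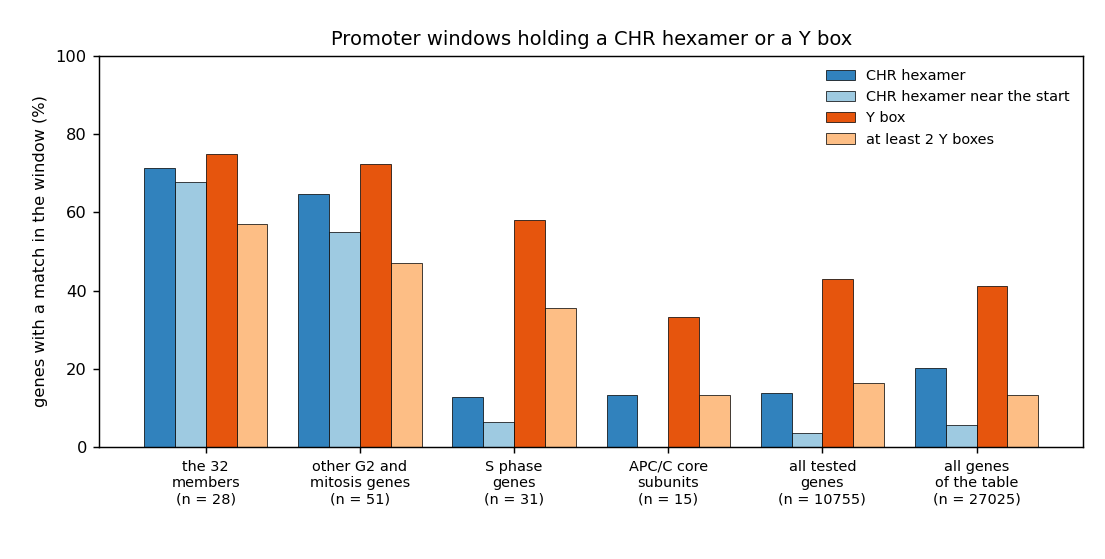
Percentage of genes (vertical axis) whose promoter window holds a CHR hexamer anywhere, a CHR hexamer beginning within 50 bases of the start, at least 1 Y box, or at least 2 Y boxes, for 6 gene sets with the number of genes in brackets. The 28 matched members stand at 71.4% for the CHR hexamer and the tested genes at 13.9%. The CHR hexamer is TTTGAA on either strand, and the last set holds the 27025 genes with a RefSeq window.

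Setting mutant against wild-type PRPF6 asks whether cortical cells given the mutant protein hold a different level of these messages. In all 6 libraries the 32 genes were abundant, with 1560 to 29601 counts for a gene in a library. Under mutant PRPF6 the fitted mean was higher for 30 and lower for 2 of the 32, Kif11 and Mki67. The number higher was 29 under upper-quartile scaling, with Cenpe then lower, 27 with a replicate block and 26 under limma-voom. The members' median log2 difference was 0.26 (0.13 under limma-voom), where 49.8% of all 14451 tested genes were higher and their median was −0.0013. After Benjamini-Hochberg adjustment over all genes, edgeR's quasi-likelihood test called 0 of the 32 (lowest adjusted p = 1.00) and 0 of all tested genes (0%). At an unadjusted p under 0.05 stood 0 members, against 489 of all tested genes (3.38%), and the lowest member p was 0.131. limma-voom called 0 genes and DESeq2 called 6 of 5756 genes with an adjusted p (0.104%), with 0 members among them and 0 members at an unadjusted p under 0.05 by either tool. The groups overlapped for each of the 32 genes, while in 9.14% of all tested genes they did not (mutant libraries all above in 4.60%, all below in 4.54%).

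The libraries of each group lay farther apart than the groups did. Summed over the 32 genes, the wild-type libraries held 4308, 6383 and 4269 CPM, and the mutant libraries 3671, 5097 and 8686 CPM. The mutant group held both the lowest and the highest library, 2.37-fold apart, and the wild-type libraries spanned 1.50-fold. Group means (± SD, n = 3 each) came to 4987 ± 1209 CPM for wild-type and 5818 ± 2584 CPM for mutant PRPF6, a ratio of 1.17. In bulk libraries, fewer dividing cells and less of these messages per dividing cell cannot be told apart. For all 32 genes the fold range over the mutant libraries, and also that over the wild-type libraries, was larger than the fold between the group means. A range over 3 libraries tends to exceed a difference between means, and the share over all tested genes was not taken.

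The same libraries were high or low for nearly every gene. Mutant replicate 3 was the highest of the 6 libraries in 30 of the 32 genes, against 17.8% of all tested genes. The exceptions were Kif11 and Mki67, both highest in wild-type replicate 2. Wild-type replicate 2 was the highest wild-type library in 31 of 32. Mutant replicate 1 was lowest in 17 of 32 genes (24.1% of all tested genes), wild-type replicate 1 in 10, wild-type replicate 3 in 4 and mutant replicate 2 in 1, Cks2. Mutant replicate 2 lay between the other mutant libraries in 29 of 32. Across the 6 libraries, the log2 CPM of a member and the mean of the other members had a Pearson r of 0.78 to 0.99 (median 0.95). The members share their libraries, so this is a description.

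**Figure D2:**
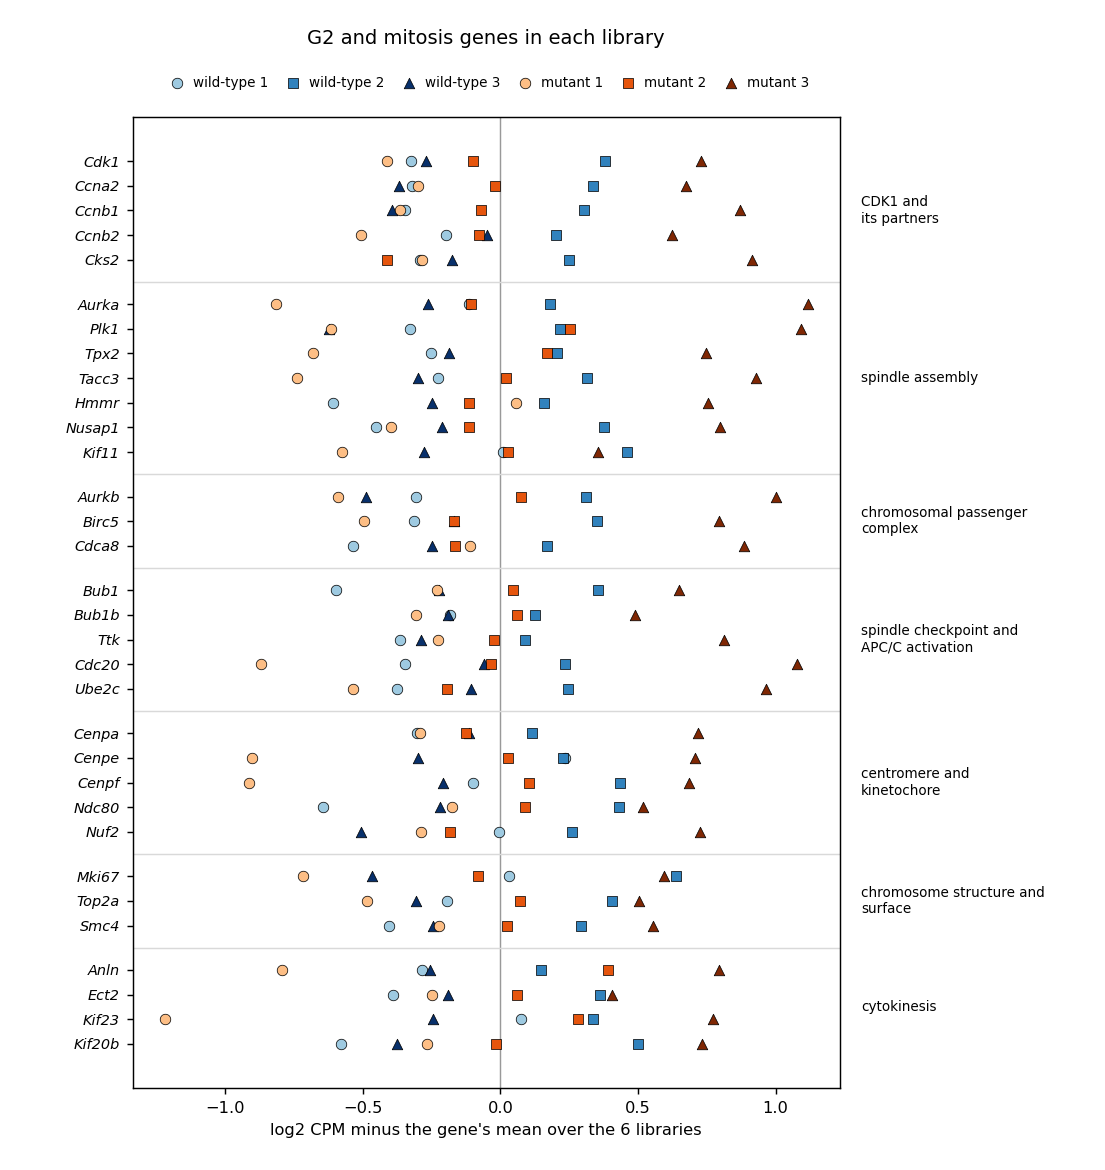
Each row is 1 of the 32 genes, grouped by role, and the horizontal axis gives log2 CPM minus that gene's mean over the 6 libraries; blue marks are wild-type and orange marks mutant replicates. Mutant replicate 3 is farthest right in 30 of 32 genes, and mutant replicate 1 farthest left in 17.

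The fold between the highest and the lowest library ran from 1.74 to 3.97 over the members on the moderated log2 scale, with a median of 2.46. Over the 4877 tested genes within the members' range of mean CPM the median was 1.59. The standard error of a member's log2 difference had a median of 0.33, against 0.20 over those 4877 genes.

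CDK1 with a cyclin is the kinase that starts mitosis. All 5 genes of this group had higher fitted means with mutant PRPF6 (median log2 difference 0.26). Ccnb1 (chromosome 13, 100778650 to 100786570, minus strand, GRCm38), cyclin B1, stood at 248, 390 and 240 CPM for wild-type and 245, 301 and 578 CPM for mutant PRPF6. Mutant replicate 3 stood apart and the other 5 libraries overlapped. Group means (± SD, n = 3 each) were 293 ± 83.9 and 375 ± 178 CPM, and the fitted log2 difference was 0.36 ± 0.34 (SE).

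Cdk1 itself (chromosome 10, 69335146 to 69352938, minus strand) was at 111, 180 and 115 CPM under wild-type and 104, 130 and 230 CPM under mutant PRPF6. Ccna2, the cyclin A that acts in S and G2 phase, was at 235, 369 and 227 CPM under wild-type and 238, 289 and 467 CPM under mutant PRPF6, from counts that RSEM partly shared with other genes. Both genes had wild-type replicate 2 as their second highest library. Ccnb2, cyclin B2, had the smallest difference of the group (0.095 ± 0.28, SE), and Cks2, a small CDK-binding subunit, was at 76.1 to 111 CPM under wild-type and 70.0 to 176 CPM under mutant PRPF6.

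Genes of spindle assembly held the widest spread between differences. Plk1 (chromosome 7, 122159439 to 122169873, plus strand), the polo-like kinase of mitotic entry and centrosome maturation, was at 100, 147 and 81.9 CPM under wild-type and 82.3, 150 and 269 CPM under mutant PRPF6. Its log2 difference of 0.61 ± 0.41 (SE) was the largest of the 32, and it came with overlapping groups. Without mutant replicate 3 it was 0.083. Aurka, the Aurora kinase of the centrosome and spindle poles, was at 113, 139 and 102 CPM under wild-type and 69.5, 114 and 265 CPM under mutant PRPF6. The mutant libraries of Aurka enclosed all 3 wild-type libraries, 3.82-fold from lowest to highest.

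Tpx2 (chromosome 2, 152847964 to 152895321, plus strand), which activates Aurora A and nucleates spindle microtubules, was at 196, 269 and 205 CPM under wild-type and 146, 263 and 392 CPM under mutant PRPF6 (0.25 ± 0.33, SE). Tacc3, a spindle-stabilising partner of Aurora A, spanned 117 to 371 CPM within the mutant group. Hmmr, a spindle protein also called RHAMM, was at 52.4, 88.9 and 67.1 CPM under wild-type and 82.9, 73.7 and 135 CPM under mutant PRPF6. It had the lowest unadjusted p of the members (0.131 by edgeR's quasi-likelihood test, log2 difference 0.48 ± 0.29, SE), and the lowest r with the other members (0.78). Nusap1, a microtubule bundler, had a log2 difference of 0.24 ± 0.34 (SE). Kif11, the kinesin that pushes spindle poles apart, went against the group at 190, 260 and 156 CPM under wild-type and 127, 192 and 241 CPM under mutant PRPF6 (−0.11 ± 0.27, SE).

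The chromosomal passenger complex corrects wrong attachments of chromosomes and later guides cytokinesis. Its 3 members had higher fitted means. Cdca8 (chromosome 4, 124918465 to 124939311, minus strand), which encodes borealin, was at 151, 246 and 184 CPM under wild-type and 202, 195 and 403 CPM under mutant PRPF6, a log2 difference of 0.46 ± 0.31 (SE). Mutant replicates 1 and 2 lay inside the wild-type range. Aurkb, the kinase of the complex, was at 115, 177 and 102 CPM under wild-type and 94.7, 150 and 286 CPM under mutant PRPF6 (0.43 ± 0.39, SE). Birc5, survivin, differed less (0.16 ± 0.34, SE).

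The spindle checkpoint delays anaphase until all chromosomes are attached, and CDC20 with the APC/C then releases it. Cdc20 (chromosome 4, 118432901 to 118437352, minus strand) was at 217, 324 and 264 CPM under wild-type and 151, 269 and 581 CPM under mutant PRPF6. In 2 of the 6 libraries its count was partly shared with other genes. Its mutant libraries were 3.85-fold apart and reached above and below all wild-type libraries, so the difference was 0.31 ± 0.43 (SE). Ube2c, the ubiquitin-conjugating enzyme of the APC/C, was likewise lowest in mutant replicate 1 and highest in mutant replicate 3, at 181, 279 and 218 CPM under wild-type and 162, 206 and 460 CPM under mutant PRPF6.

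The checkpoint kinases varied less. Ttk (chromosome 9, 83834689 to 83872389, plus strand), the kinase MPS1, was at 37.4, 51.2 and 39.4 CPM under wild-type and 41.2, 47.4 and 84.6 CPM under mutant PRPF6 (0.44 ± 0.30, SE). Bub1, a checkpoint kinase at kinetochores, was at 63.9 to 123 CPM and 82.3 to 151 CPM. Bub1b, which encodes BUBR1, had the smallest spread of the 32 genes, 148 to 257 CPM over all libraries (1.74-fold).

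Centromere and kinetochore genes link chromosomes to spindle microtubules, and all 5 had higher fitted means (median log2 difference 0.21). Cenpf (chromosome 1, 189640606 to 189688086, minus strand), a large protein of the outer kinetochore, was at 173, 251 and 161 CPM under wild-type and 98.6, 199 and 299 CPM under mutant PRPF6. Cenpe, the kinetochore kinesin, was at 166, 166 and 115 CPM under wild-type and 75.6, 144 and 231 CPM under mutant PRPF6. For both the mutant libraries enclosed the wild-type ones, and the log2 differences were 0.029 ± 0.37 and 0.013 ± 0.37 (SE).

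Cenpa (chromosome 5, 30666777 to 30674830, plus strand), the histone H3 variant of centromeres, was at 95.5, 128 and 109 CPM under wild-type and 96.0, 108 and 194 CPM under mutant PRPF6 (0.26 ± 0.28, SE). Nuf2 and Ndc80, which form the microtubule-binding NDC80 complex, had log2 differences of 0.21 ± 0.31 and 0.25 ± 0.31 (SE), the latter from partly shared counts.

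Top2a (chromosome 11, 98992943 to 99024189, minus strand), the topoisomerase that untangles sister chromatids, was at 320, 485 and 296 CPM under wild-type and 262, 385 and 520 CPM under mutant PRPF6 (0.083 ± 0.28, SE). Smc4 (chromosome 3, 69004738 to 69034623, plus strand), a condensin subunit, was at 158, 257 and 177 CPM under wild-type and 180, 213 and 308 CPM under mutant PRPF6 (0.24 ± 0.25, SE). Mki67, which coats mitotic chromosomes and is the source of the Ki-67 stain, was at 284, 432 and 201 CPM under wild-type and 169, 263 and 419 CPM under mutant PRPF6 (−0.11 ± 0.37, SE). In this group wild-type replicate 2 came close to mutant replicate 3 or passed it.

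Cytokinesis genes build and cut the bridge between daughter cells. Ect2 (chromosome 3, 27097222 to 27153878, minus strand), which activates RhoA at the cleavage furrow, was at 92.1, 155 and 106 CPM under wild-type and 102, 126 and 160 CPM under mutant PRPF6 (0.13 ± 0.25, SE). Anln (chromosome 9, 22332012 to 22389188, minus strand), the furrow scaffold anillin, was at 38.2, 51.6 and 39.0 CPM under wild-type and 26.8, 61.02 and 80.7 CPM under mutant PRPF6 (0.39 ± 0.37, SE). Kif23, the kinesin of centralspindlin, had the widest spread of all 32, 36.4 CPM in mutant replicate 1 against 145 CPM in mutant replicate 3, while its wild-type libraries stood at 71.4 to 107 CPM. Kif20b, a kinesin of abscission in cortical progenitors, was at 44.3 to 93.7 CPM under wild-type and 54.9 to 110 CPM under mutant PRPF6.

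**Figure D3:**
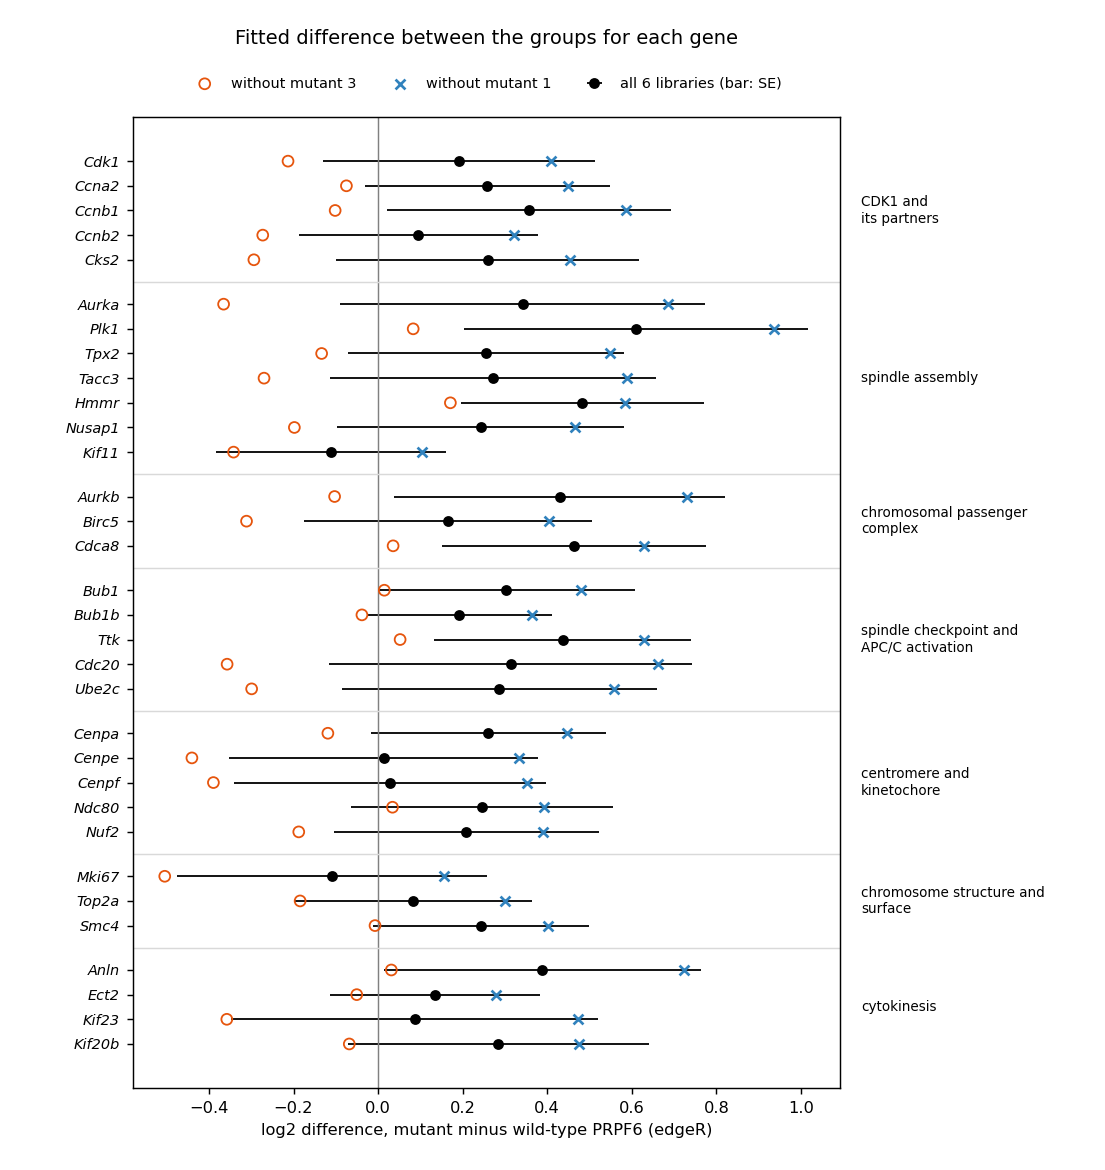
Fitted log2 difference, mutant minus wild-type PRPF6 (horizontal axis), for each gene from all 6 libraries (black, with its standard error) and after mutant replicate 3 (open orange circle) or mutant replicate 1 (blue cross) was left out. Without mutant replicate 3, 25 of 32 genes lie left of 0, and without mutant replicate 1 all 32 lie right of it.

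The direction of the members' median difference turned only when mutant replicate 3 was left out, while its size changed with other libraries. Without mutant replicate 3, 7 members had higher and 25 lower fitted means (median log2 difference −0.16), where 47.9% of all genes tested in that fit were higher. None then had a higher level at an unadjusted p under 0.05, where 2.63% of all genes did. Without mutant replicate 1 all 32 were higher (median 0.46), where 47.7% of all genes were, and 3 members had an unadjusted p under 0.05, where 1.63% of all genes did so in that direction. These 3 were Anln, Tpx2 and Plk1, with unadjusted values of 0.0186, 0.0498 and 0.0220 and adjusted p-values of 1.00 by edgeR's quasi-likelihood test. Without wild-type replicate 2 all 32 were higher too (median 0.46). Hmmr and Plk1 were among the 7 that stayed higher without mutant replicate 3, at 0.17 and 0.083. The other 5 were Cdca8, Ttk, Ndc80, Anln and Bub1, at 0.015 to 0.052. With wild-type replicate 3 and mutant replicate 2 left out together, the library of each group with the most non-neural markers, 26 members were higher, with a median of 0.24. Mutant replicate 3, the library with the highest sum of the members, had the lowest red blood cell and meningeal sums. Mutant replicate 1, the library with the lowest sum of the members, had the second lowest of both (788 and 110 CPM). Over the 6 libraries the median r with the members' mean was −0.29 for red blood cell and −0.25 for meningeal fibroblast markers. It was −0.32 for endothelial and mural, 0.040 for microglia and −0.28 for interneuron markers. The part of these markers in the result was not tested.

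Mutant replicate 3 and wild-type replicate 2, the libraries with the highest sums, differed by role. Their ratio had a median of 1.65 for checkpoint and APC/C genes, 1.62 for the passenger complex and 1.51 for spindle assembly, and of 1.07 for chromosome structure genes. It was highest for Aurka (1.91), Plk1 (1.84) and Cdc20 (1.79) and lowest for Kif11 (0.929) and Mki67 (0.971). These are values of 2 libraries with no test. Transcript length moved with them: over the 32 genes this log2 ratio had a Spearman's rho of −0.57 with exonic length, and the fitted group difference had −0.44. Over 58 of the other G2 and mitosis genes the values were 0.036 and −0.098, and over 13746 tested genes −0.074 and −0.028. These are correlations across genes, which are not independent replicates, and the part of length in the result was not tested.

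Levels of different genes can be compared only per length. Per kilobase of exon, over the 6 libraries, Cdc20 stood highest (161 CPM per kilobase), followed by Cks2 (143), Ube2c (96.5) and Ccnb1 (79.1). Lowest were Anln (5.47), Ndc80 (8.63), Kif20b (10.05) and Ttk (10.2). The lengths join the exons of all annotated isoforms, so a gene with a long rare isoform is placed too low.

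The other genes of the pathway were described from lists. Of the 64 other G2 and mitosis genes 63 were tested, and Ccnb3 was at 0 in every library. Of these 63, 55 were higher and 8 lower (median log2 difference 0.25), 0 passed the test, and mutant replicate 3 was highest in 56. Without mutant replicate 3, 24 were higher and 39 lower. Espl1, separase, which cuts cohesin at anaphase, was at 53.3, 48.9 and 40.1 CPM under wild-type and 62.8, 81.3 and 82.6 CPM under mutant PRPF6. It was the 1 gene of the list whose groups did not overlap, where 4.60% of all tested genes had every mutant library above every wild-type library. Its log2 difference was 0.67 ± 0.20 (SE), with an unadjusted p of 0.0101 and an adjusted p of 1.00 by edgeR's quasi-likelihood test. Kif18b, a kinesin that shortens microtubules, was at 46.3, 53.7 and 34.8 CPM under wild-type and 50.6, 77.4 and 106 CPM under mutant PRPF6.

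Of 18 genes of the MuvB, B-MYB, FOXM1, DREAM and NF-Y regulators, 11 were higher and 7 lower (median 0.052) and 0 passed. Foxm1, the transcription factor that activates late mitotic genes, was at 60.1, 130 and 76.1 CPM under wild-type and 101, 147 and 213 CPM under mutant PRPF6 (0.79 ± 0.35, SE). Like most members it was highest in mutant replicate 3. Mutant replicate 2 lay above wild-type replicate 2, however, and mutant replicate 1 above wild-type replicates 1 and 3. Without mutant replicate 3 the log2 difference of Foxm1 was 0.48. Tfdp2, an E2F partner, was at 52.3 to 73.6 and 73.4 to 83.0 CPM. Kinases and phosphatases that control mitotic entry were split, 7 higher and 7 lower (median 0.023), with Mastl, the kinase Greatwall, at 13.1 to 20.2 and 19.3 to 28.5 CPM and Ensa, its substrate, at 130 to 148 and 147 to 174 CPM. APC/C core subunits, 9 higher and 7 lower (median 0.051), varied little: their summed level was 2594 to 3166 CPM over the 6 libraries. Anapc1, the largest subunit, was at 132 to 155 and 133 to 218 CPM, and Cdc23 at 222 to 234 and 242 to 287 CPM.

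S phase genes, 26 higher and 14 lower (median 0.052), summed to 5190, 6282 and 4228 CPM under wild-type and to 4044, 5039 and 7191 CPM under mutant PRPF6. Mutant replicate 3 was highest in 28 of the 40. Cdt1, the licensing factor of replication origins, was at 32.9 to 49.5 and 53.9 to 76.7 CPM, and Ccne1, cyclin E1, at 17.1 to 27.2 and 24.3 to 39.1 CPM. Relative to the S phase sum, the sum of the 32 genes was 0.830, 1.02 and 1.01 with wild-type and 0.908, 1.01 and 1.21 with mutant PRPF6. Mutant replicate 3 was thus highest on this ratio too, over a range of 1.46-fold against 2.37-fold for the sum itself.

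Cell cycle exit genes had a median r of 0.18 with the members' mean over the 6 libraries, against 0.90 for the other G2 and mitosis genes. Of 15, 10 were higher and 5 lower (median 0.10), and 3 were higher at an unadjusted p under 0.05, where 2.18% of all tested genes were. The list was chosen with earlier results of these data known, so these counts are a description. Btg2, an antiproliferative gene of neurogenic progenitors, was at 132, 173 and 135 CPM under wild-type and 232, 223 and 246 CPM under mutant PRPF6. Ccng1, a p53-induced cyclin, was at 30.1, 56.2 and 50.4 CPM under wild-type and 163, 63.1 and 98.2 CPM under mutant PRPF6. The third was Cdkn1a, the CDK inhibitor p21, named after its values were seen, at 14.2, 19.6 and 32.2 CPM under wild-type and 58.4, 28.3 and 43.2 CPM under mutant PRPF6. Ccng1 and Cdkn1a were highest in mutant replicate 1, the library with the lowest sum of the 32 genes. The list as a whole was not highest there: its sum was 2352 CPM in mutant replicate 1 and 2393 CPM in mutant replicate 3. Of the 15 genes, 6 were highest in mutant replicate 3, Btg2 among them.

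**Figure D4:**
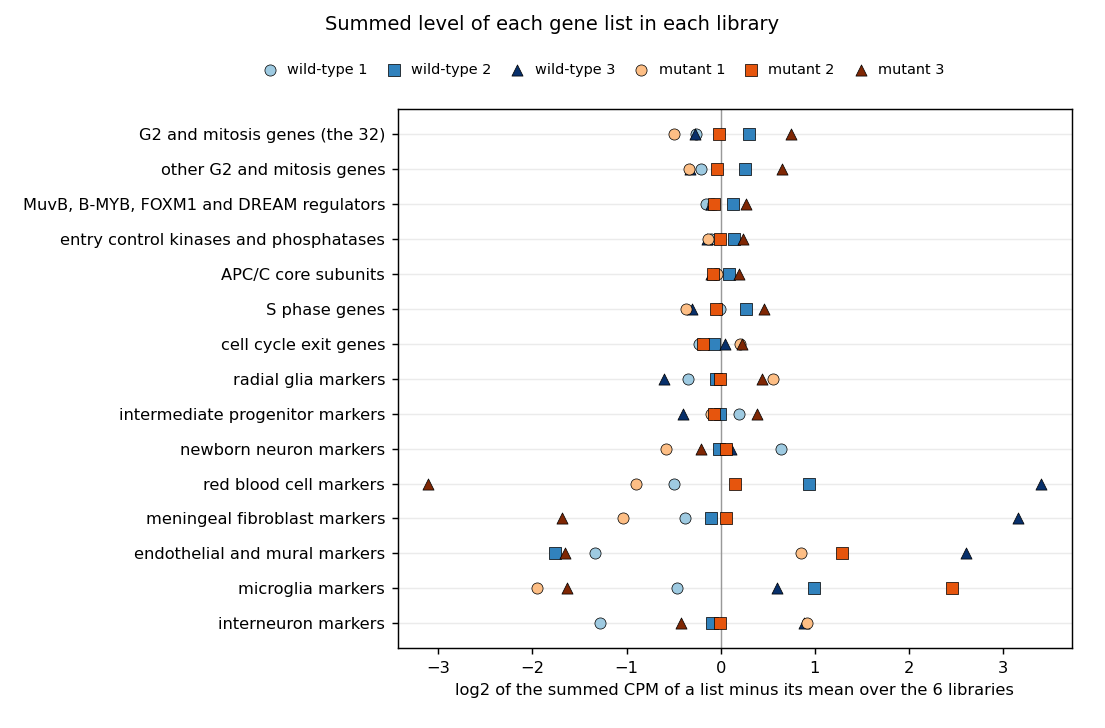
Summed level of each gene list in each library (horizontal axis, log2 of summed CPM minus the mean over the 6 libraries); blue marks are wild-type and orange marks mutant replicates. The 32 genes, the other G2 and mitosis genes and the S phase genes share mutant replicate 3 as their highest library, while radial glia markers are highest in mutant replicate 1.

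The members were also set against markers of the progenitors that divide and of the neurons that do not. Radial glia markers summed to 3361, 4124 and 2807 CPM under wild-type and to 6267, 4255 and 5784 CPM under mutant PRPF6. All 19 had higher fitted means under mutant PRPF6 (median log2 difference 0.55), and 18 of 19 did without mutant replicate 3. At an unadjusted p under 0.05 stood 6 of them, where 2.18% of all tested genes were higher, and 0 passed the adjusted test. The markers were chosen with earlier results of these data known, so these counts are a description. The sum of the 32 genes relative to them was 1.28, 1.55 and 1.52 with wild-type and 0.586, 1.20 and 1.50 with mutant PRPF6. Mutant replicate 1, which had the highest radial glia sum and the lowest sum of the 32 genes, stood far below the other 5 libraries. The means were 1.45 ± 0.15 and 1.10 ± 0.47 (SD, n = 3 each), so here the order of the group means was opposite to that of the sum itself.

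Of 18 newborn neuron markers, 17 had lower fitted means under mutant PRPF6 (median log2 difference −0.69), and all 18 did without mutant replicate 3. At an unadjusted p under 0.05 stood 4 of them, where 1.20% of all tested genes were lower, and 0 passed the adjusted test. This list too was chosen with earlier results known, and its counts are a description. Relative to these markers the sum was 0.367, 0.854 and 0.524 with wild-type and 0.726, 0.651 and 1.33 with mutant PRPF6. Mutant replicate 3 was again highest and wild-type replicate 1, which had the highest newborn neuron sum, lowest. Intermediate progenitor markers summed to 3490, 3039 and 2316 CPM under wild-type and to 2846, 2899 and 3992 CPM under mutant PRPF6. Over the 6 libraries, the median r with the members' mean was 0.50 for radial glia, 0.31 for intermediate progenitor and 0.013 for newborn neuron markers. The part of these cell types in the members' levels was not tested.

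**Figure D5:**
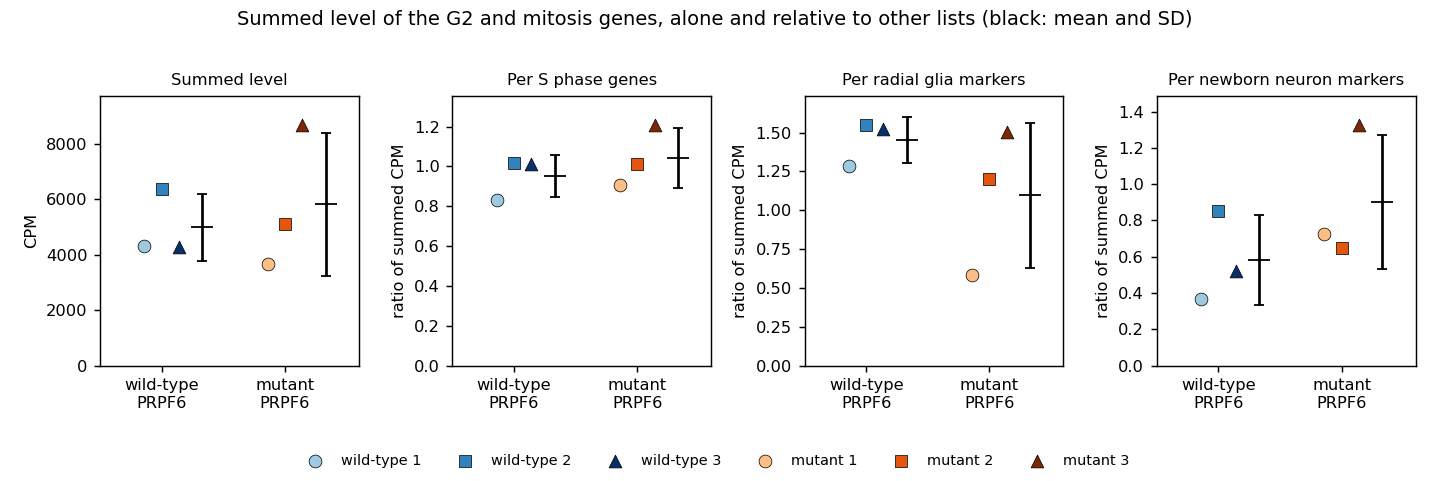
Summed CPM of the 32 genes per library (first panel) and that sum divided by the summed CPM of S phase genes, radial glia markers and newborn neuron markers; symbols are single replicates, and black bars give the mean and SD of 3 libraries. The groups overlap in each panel, and mutant replicate 1 is lowest on the radial glia ratio at 0.586.

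Genes outside the list were ranked by the likeness of their pattern, as the Pearson r over the 6 libraries between their log2 CPM and the mean log2 CPM of the 32 genes. Of 11156 genes with a mean of at least 5 CPM, the 10 most alike were 2810025M15Rik, C030046E11Rik, Gtf2h2, Haus5, D030056L22Rik, Sgol2, Haus8, Pkm, Prc1 and Dgcr14, with r of 0.986 to 0.995. Haus5 and Haus8 encode subunits of augmin, which branches spindle microtubules, Sgol2 a shugoshin of centromeres and Prc1 the bundler of midzone microtubules. Prc1 was at 181, 316 and 203 CPM under wild-type and 147, 258 and 432 CPM under mutant PRPF6. Haus5 was at 63.4, 97.8 and 61.8 CPM under wild-type and 56.4, 83.9 and 144 CPM under mutant PRPF6. Pkm, pyruvate kinase of glycolysis, had the same order over a much smaller range, 2203 to 3312 CPM. The lists made up a small part of the 11156 genes compared: 63 other G2 and mitosis genes, 40 S phase genes and 16 APC/C core subunits. Of the 100 genes most alike, 14, 5 and 1 came from these lists, in that order. The median r was 0.90 for the other G2 and mitosis genes, 0.84 for S phase genes, 0.26 for APC/C core subunits and 0.033 over all genes compared. With 6 libraries and so many genes, single values of r are a description only.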

How the data were processed

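Gene expression was measured in 6 libraries, 3 per group, with groups and replicate numbers from the sample titles. The authors deposited expected counts per gene, made with RSEM on mm10 per the submitters' processing notes. The version of RSEM, the aligner, the annotation and whether counting used strand: not given in the sources used here, so reads of overlapping genes cannot be told apart. Of the members, 4 (Ccna2, Nusap1, Cdc20 and Ndc80) held expected counts that were not whole numbers, read here as counts shared between genes. Cdc20 did so in 2 libraries and the others in all 6. Reads were amplified from little RNA without molecular identifiers and are not independent molecules.

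Counts were rounded, filtered with filterByExpr (14451 of 24041 genes left), scaled with TMM and compared by edgeR's quasi-likelihood test (edgeR 4.0.16 in R 4.3.3, two-sided, with robust estimation and the group as the only term), with Benjamini-Hochberg adjustment over all genes and a threshold of 0.05. One count was worth 0.0164 to 0.0228 CPM. Patterns across libraries used log2 CPM with a prior count of 2. Lengths and gene coordinates are from GENCODE M21 (GRCm38). A further result on promoter sequence is not reported here.

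Members and lists were chosen with earlier results of these data known. Every member is named; values in all libraries are given at least for the most abundant member and the member of largest difference in each role. The 2 genes of smallest p in each other cell cycle list (mean of at least 5 CPM) and the 10 genes most alike in pattern are named too. Alternatives were other scaling factors and filters, DESeq2 1.42.0, limma-voom (limma 3.58.1), no robust estimation, a replicate block, an adjusted p under 0.1, leaving out each library, and, chosen after seeing the data, leaving out the library of each group richest in non-neural markers.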

Additional observations from a re-analysis of the deposited data

How the results depend on the processing

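No member passed the test under any of the alternatives run, and no gene did except under DESeq2, which called 6. Neither other scaling, other filters, the fit without robust estimation nor an adjusted p under 0.1 gave a call. The number of members higher with mutant PRPF6 was 26 to 30 under the alternatives that kept all libraries and ran from 7 to 32 when each library was left out in turn, lowest without mutant replicate 3. The median log2 difference ran from −0.16 to 0.46 in those fits and was negative only without mutant replicate 3.

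With each library left out in turn, the log2 difference changed sign for 25 members. It ran from −0.21 to 0.45 for Cdk1, −0.075 to 0.52 for Ccna2, −0.10 to 0.61 for Ccnb1, −0.27 to 0.32 for Ccnb2, −0.29 to 0.49 for Cks2, −0.37 to 0.68 for Aurka, −0.13 to 0.55 for Tpx2, −0.27 to 0.59 for Tacc3, −0.20 to 0.51 for Nusap1, −0.34 to 0.11 for Kif11, −0.10 to 0.73 for Aurkb, −0.31 to 0.41 for Birc5, −0.038 to 0.37 for Bub1b, −0.36 to 0.66 for Cdc20, −0.30 to 0.56 for Ube2c, −0.12 to 0.45 for Cenpa, −0.44 to 0.33 for Cenpe, −0.39 to 0.35 for Cenpf, −0.19 to 0.39 for Nuf2, −0.50 to 0.22 for Mki67, −0.18 to 0.33 for Top2a, −0.0072 to 0.48 for Smc4, −0.0504 to 0.38 for Ect2, −0.36 to 0.47 for Kif23 and −0.068 to 0.68 for Kif20b. The cause was not tested. Under limma-voom the sign also turned for Ccnb2 (−0.0012), Cenpe (−0.14), Cenpf (−0.11) and Kif23 (−0.17), and under upper-quartile factors for Cenpe (−0.0086). Without the 2 libraries richest in non-neural markers it turned for Cenpe (−0.11), Cenpf (−0.095), Top2a (−0.045) and Kif23 (−0.12), and the medians of entry control kinases and of S phase genes turned to −0.0014 and −0.029. The medians of other lists that turned when a library was left out ran from −0.11 to 0.46 for other G2 and mitosis genes, −0.048 to 0.16 for MuvB, B-MYB, FOXM1 and DREAM regulators, −0.061 to 0.12 for entry control kinases and phosphatases, −0.093 to 0.14 for APC/C core subunits, −0.21 to 0.25 for S phase genes and −0.030 to 0.36 for intermediate progenitor markers.

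Groups share replicate numbers in the titles, and also in the column names, which skip some numbers alike in both groups. Even so, same-numbered libraries did not deviate together (r of their deviations from the group means 0.054, 0.061 and −0.26 for replicates 1, 2 and 3). With a replicate block 0 members and 0 genes passed, 27 members were higher (median 0.15), and the sign turned for Cenpe (−0.11), Cenpf (−0.090) and Kif23 (−0.11). With 3 libraries a group and a median standard error of 0.33 on the log2 scale, the members' differences were not detectable. Each member had at least 1560 counts in every library.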
